A study of Homo sapiens with 24 samples.

Results

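Sprouty, SPRED and dual-specificity phosphatase genes, with ERRFI1, encode proteins that restrain signalling from receptor tyrosine kinases through RAS to the kinase ERK. The 10 genes described here are SPRY1, SPRY2, SPRY4, SPRED1, SPRED2, SPRED3, DUSP4, DUSP5, DUSP6 and ERRFI1, out of 23106 gene symbols with counts. SPRY1 was selected on its measured rise in hypoxia in these same libraries, and the other 9 were taken for their shared role, to ask whether they followed it. The hypoxia values of SPRY1 are therefore a description with no test. Of the 10 genes, 8 passed the filter on low counts, whereas SPRY4 and SPRED3 did not, and SPRY1 passed it through the hypoxia groups in which it is high.

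RNA was sequenced from RCC4+VHL cells. The parent line, from a clear cell renal carcinoma, carries a coding mutation in the von Hippel-Lindau tumour suppressor gene (VHL). Wild-type VHL was put back by stable transfection in a clone, so that oxygen again controls hypoxia-inducible factor (HIF). All 24 libraries carry that transgene and come from this clone, grown in charcoal-treated serum, in 4 groups of 6 libraries. Normoxia + DMSO (21% oxygen, 0.1% DMSO as vehicle) and normoxia + ITE (100 nM of ITE, a ligand of the aryl hydrocarbon receptor, AHR) were compared with hypoxia + DMSO and hypoxia + ITE at 0.5% oxygen, each after 6 h. The question was how the response of these feedback genes to oxygen and to the AHR ligand compares with that of SPRY1.

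Growth factor receptors activate RAS, which activates the RAF kinases, then MEK and finally ERK. ERK in turn induces several of its own inhibitors, and such genes are widely read as a measure of pathway output. Sprouty proteins act between the receptor and RAF, and SPRED proteins recruit neurofibromin to switch RAS off. DUSP4, DUSP5 and DUSP6 remove phosphate from ERK, DUSP5 in the nucleus and DUSP6 in the cytoplasm, and ERRFI1 (MIG6) binds the kinase domain of the EGF receptor family. In clear cell renal carcinoma, loss of VHL leaves HIF active, and growth factors such as TGFA and VEGFA are among the known HIF-regulated products.

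The shallowest library held 770094 counts and the deepest 93851342 (median 7981993), and a level that rests on a few counts carries counting error besides the spread between libraries. Levels are given in CPM, counts divided by library size and scaled up to a shared total, on the effective library size after TMM normalisation. Of 12 listed HIF target genes, 10 were tested and 10 were higher in hypoxia with either vehicle or ligand, and their summed level was 417 to 486 CPM in normoxia + DMSO against 1850 to 2320 CPM in hypoxia + DMSO. Of 6 listed AHR targets, 5 were tested and 3 rose with ITE in normoxia and 2 in hypoxia. In each group 7 of 8 markers of a renal epithelial carcinoma were above 1 CPM on average. The summed level of 11 markers of other cell types reached 65.1 CPM in normoxia + DMSO replicate 4, through the collagen genes COL1A1 (27.1 CPM) and COL3A1 (16.0 CPM), and was at most 20.8 CPM in the libraries of the other groups. Without that library the count of feedback genes past the threshold was 0 in every comparison. PTPRC, which marks leukocytes, and ALB, which marks liver, were at or near 0 in every group. Several hypoxia libraries stood apart. The median absolute distance of a gene from its group median was 0.677 on the log2 scale in hypoxia + ITE replicate 6, 0.359 in hypoxia + DMSO replicate 1, 0.297 in hypoxia + DMSO replicate 2 (770094 counts), 0.265 in hypoxia + ITE replicate 3 and 0.248 in hypoxia + ITE replicate 1 (1357702 counts), against at most 0.157 in the rest.

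The 10 genes lie on 10 different chromosomes. In the GRCh37 annotation SPRY1 has 3 exons at chr4:124317950-124324915 on the plus strand, and SPRY2 has 2 exons at chr13:80910111-80915261 on the minus strand. Sequence upstream of 3 genes is shown because SPRY1 rose in hypoxia, its relative SPRY2 did not pass the test, and DUSP6 holds the same short motif as SPRY1. Each window is the 250 bases before a RefSeq start site (GRCh38.p14), found as 1 exact match in GRCh37 and written 5′ to 3′ on the strand of the gene. The windows shown are chr4:124317700-124317949 for SPRY1 (plus strand), chr13:80915262-80915511 for SPRY2 (minus strand) and chr12:89746279-89746528 for DUSP6 (minus strand). Capitals mark GCGTG, the core of the AHR response element and also a form of the wider HIF motif, or its complement CACGC.
SPRY1: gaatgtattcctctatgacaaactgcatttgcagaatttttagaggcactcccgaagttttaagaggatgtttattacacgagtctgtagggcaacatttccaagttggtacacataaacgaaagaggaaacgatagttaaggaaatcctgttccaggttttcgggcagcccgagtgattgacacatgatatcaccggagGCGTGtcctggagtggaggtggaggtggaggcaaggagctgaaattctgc
SPRY2: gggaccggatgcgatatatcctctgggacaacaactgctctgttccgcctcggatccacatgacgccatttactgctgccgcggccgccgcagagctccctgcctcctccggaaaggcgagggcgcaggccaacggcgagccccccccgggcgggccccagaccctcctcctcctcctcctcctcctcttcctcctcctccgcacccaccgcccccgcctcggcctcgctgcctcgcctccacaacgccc
DUSP6: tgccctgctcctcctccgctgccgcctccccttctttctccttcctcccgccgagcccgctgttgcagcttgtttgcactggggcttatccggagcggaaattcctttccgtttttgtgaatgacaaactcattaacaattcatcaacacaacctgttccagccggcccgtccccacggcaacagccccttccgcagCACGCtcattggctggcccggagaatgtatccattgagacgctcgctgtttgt
Both strands of 13 windows belonging to 8 of the 10 genes, including others of SPRY1 and SPRY2, were searched for 2 motifs, which share the letters CGTG and cannot both match at the same place on a strand. ACGTG, the core of the hypoxia response element, was in 0 of the 13 windows and in 18.5% of 35116 windows of the same length over all genes. GCGTG was found in 3 windows, 50 bases before this start of SPRY1, 53 bases before that of DUSP6 on the opposite strand and 75 bases before a start of SPRED2, and it was in 32.2% of all windows. A missing match says only that these letters are not in that window.

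SPRY1 was close to the counting floor in normoxia and well above it in hypoxia. In normoxia + DMSO its level ran from 0.147 to 0.446 CPM with a median of 0.268 CPM, on 2 to 43 counts per library. The 6 libraries of hypoxia + DMSO ran from 4.12 to 7.55 CPM with a median of 4.58 CPM, on 3 to 190 counts, so that the groups did not overlap. The log2 fold change was 4.02 (SE 0.37), which is 16.2-fold with a 95% interval from 9.55 to 27.6. With ITE present the levels ran from 0 to 0.370 CPM in normoxia and from 0.743 to 4.12 CPM in hypoxia, again without overlap, and the log2 fold change was 3.37 (SE 0.41), or 10.4-fold with an interval from 5.76 to 18.6. The lowest hypoxia + DMSO library, replicate 2, holds 3 SPRY1 counts, and the lowest hypoxia + ITE library, replicate 1, holds 1. Without these 2 libraries and hypoxia + ITE replicate 6 the values were 4.03 and 3.59. In bulk RNA, more cells that express SPRY1 and more SPRY1 RNA per cell cannot be told apart.

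Even after this rise, SPRY1 was not among the most abundant of these transcripts. In normoxia + DMSO the level per kilobase of transcript was highest for ERRFI1, at 17.0 ± 3.21 CPM per kb (SD, n = 6), then 9.57 ± 2.82 for DUSP5, 6.92 ± 0.907 for SPRED2, 6.14 ± 1.03 for SPRY2, 3.01 ± 0.514 for DUSP4 and 1.73 ± 0.323 for SPRED1. DUSP6 followed at 0.270 ± 0.152, SPRY1 at 0.113 ± 0.0453, SPRY4 at 0.106 ± 0.0373 and SPRED3 at 0.0629 ± 0.0644 CPM per kb. The ranges of the libraries overlapped between DUSP5 and SPRED2, between SPRED2 and SPRY2, and between each neighbouring pair from DUSP6 down to SPRED3, so these neighbours are not ordered beyond their spread. In hypoxia + DMSO SPRY1 stood at 2.04 ± 0.583 CPM per kb, beside 5.14 ± 1.89 for SPRY2. SPRY2 thus had the higher mean in both oxygen conditions. In hypoxia + DMSO the library ranges overlapped, at 4.12 to 7.55 CPM for SPRY1 and 5.50 to 18.3 CPM for SPRY2, whose lowest library held 4 counts. There the order of these genes does not go beyond their spread.

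**Figure D1:**
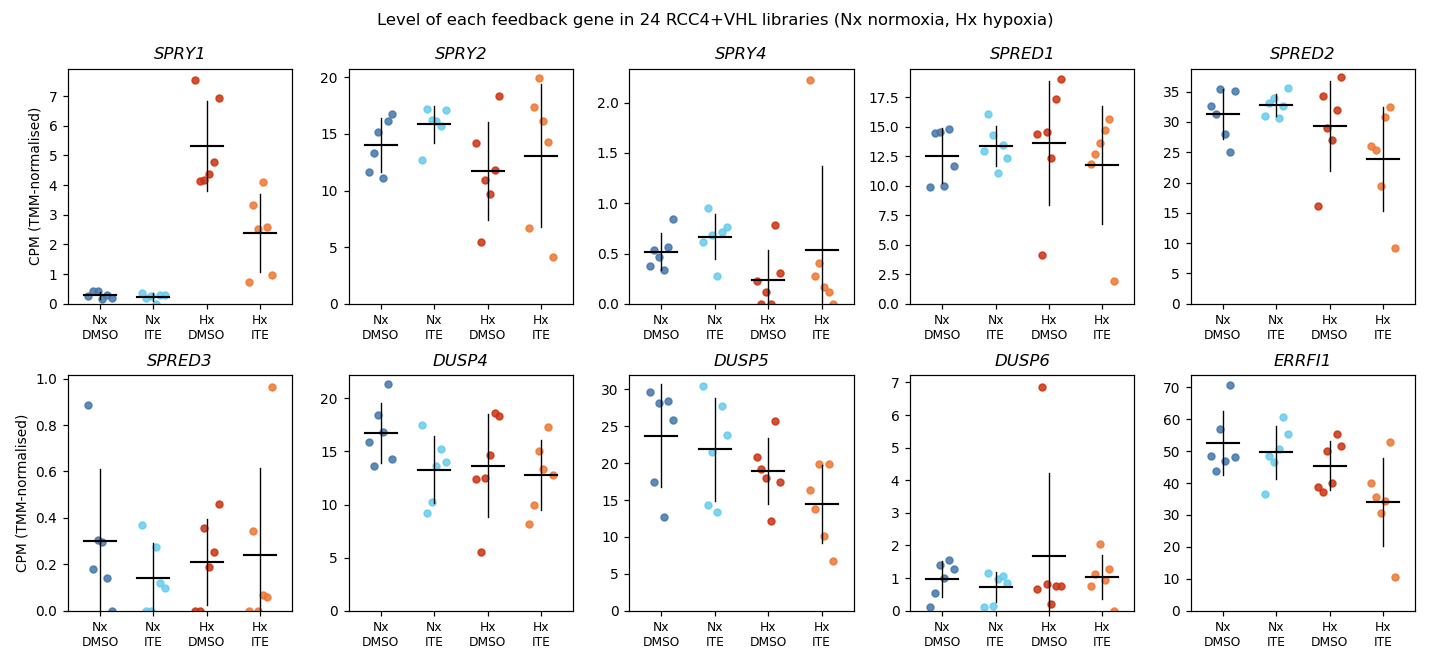
Level of each of the 10 genes in CPM (linear axes from 0, a separate scale per gene) in the 6 libraries of each group, with points for libraries, horizontal bars for means and vertical lines for 1 SD, cut at 0. SPRY1 is between 4.12 and 7.55 CPM in hypoxia + DMSO and at most 0.446 CPM in either normoxia group, whereas the hypoxia and normoxia points of the other genes overlap.

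None of the other tested genes passed the test in hypoxia with DMSO. Of 7 genes, 0 rose and 0 fell in edgeR's quasi-likelihood test, where 1.16% of all 11735 genes tested were called higher and 0.136% lower. The count was also 0 at an unadjusted p-value under 0.05, passed by 1111 of all genes, and 0 with DESeq2, which called 249. Their median log2 fold change was -0.18, with 6 negative values and 1 positive, against -0.0033 for all genes. Adjusted p-values from edgeR ran from 0.763 to 0.959. With 7 genes and a background of this size, a count of 0 does not set these genes apart from the rest of the transcriptome, and it is the intervals of the single genes that limit how far they could have moved.

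SPRY2, the Sprouty gene with the highest level of the 3 followed here, ran from 11.1 to 16.7 CPM in normoxia + DMSO (median 14.3) and from 5.50 to 18.3 CPM in hypoxia + DMSO (median 11.4). The hypoxia libraries spread around and beyond the normoxia range, and the log2 fold change was -0.17 (SE 0.25, adjusted p = 0.891), with a 95% interval from -0.68 to 0.33. An increase of the size seen for SPRY1 lies far outside that interval. SPRY4, an ERK-responsive Sprouty gene, was near the floor with 95 counts over 6 normoxia + DMSO libraries and 35 over 6 hypoxia + DMSO libraries. Its mean was 0.520 ± 0.183 CPM in the former and 0.238 ± 0.292 CPM in the latter (SD, n = 6 each). With counts pooled over the libraries of a group, which differ in depth, the levels were 0.479 and 0.538 CPM. Of the 35 hypoxia counts, 31 were in replicate 5, at 0.781 CPM, so no direction is given for SPRY4. The exact permutation test of CPM over 924 arrangements gave p = 0.0736, unadjusted, the smallest of 8 such tests on SPRY4 and SPRED3. The smallest p that this test can give is 0.00216.

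None of the SPRED genes passed the test either. SPRED1, which is mutated in Legius syndrome, had values from 9.90 to 14.9 CPM in normoxia + DMSO (median 13.1) and from 4.12 to 19.1 CPM in hypoxia + DMSO (median 14.5). It was the only tested gene of the 7 with a positive log2 fold change, 0.22 (SE 0.26, adjusted p = 0.854, 95% interval -0.31 to 0.76), and its hypoxia minimum rests on 3 counts in replicate 2. SPRED2 ran from 25.03 to 35.4 CPM and from 16.2 to 37.4 CPM, with a log2 fold change of -0.11 (SE 0.20, adjusted p = 0.919). SPRED3 was detected only at the floor, with means of 0.301 ± 0.309 CPM and 0.210 ± 0.187 CPM and several libraries at 0, and no difference was detectable at this depth (exact permutation p = 0.615).

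Among the phosphatases, DUSP5, which acts on nuclear ERK, ran from 12.7 to 29.7 CPM in normoxia + DMSO (median 27.0) and from 12.2 to 25.7 CPM in hypoxia + DMSO (median 18.6). Its log2 fold change of -0.31 (SE 0.25, adjusted p = 0.763, 95% interval -0.83 to 0.21) was the most negative of the 7, and 5 of 6 same-numbered libraries were lower in hypoxia, a count of directions between libraries that share a number and are not known to be paired. DUSP4 ran from 13.6 to 21.4 CPM and from 5.50 to 18.6 CPM, with a log2 fold change of -0.19 (SE 0.20, adjusted p = 0.828). For DUSP6, the phosphatase of cytoplasmic ERK, the mean was higher in hypoxia + DMSO (1.68 ± 2.55 CPM) than in normoxia + DMSO (0.979 ± 0.550 CPM), yet the medians were 0.762 and 1.13 CPM. The mean was carried by hypoxia + DMSO replicate 2, at 6.87 CPM on 5 counts, while the other 5 libraries were at most 0.833 CPM. The fitted log2 fold change was -0.19 with an interval from -1.40 to 1.02 (SE 0.59, adjusted p = 0.959), the widest of the 7, so DUSP6 was measured too thinly to place. The annotation puts an antisense RNA over 1105 exonic bases of DUSP6 and over 155 of ERRFI1. Neither antisense RNA has a row in the counts, and although the kit was directional the strand setting used in counting is not given in the sources used here.

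ERRFI1, the most abundant of the 10, ran from 43.8 to 70.7 CPM in normoxia + DMSO (median 48.4) and from 37.1 to 55.4 CPM in hypoxia + DMSO (median 45.1). These ranges overlapped. The log2 fold change was -0.18 (SE 0.21, adjusted p = 0.851), with an interval from -0.61 to 0.25.

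**Figure D2:**
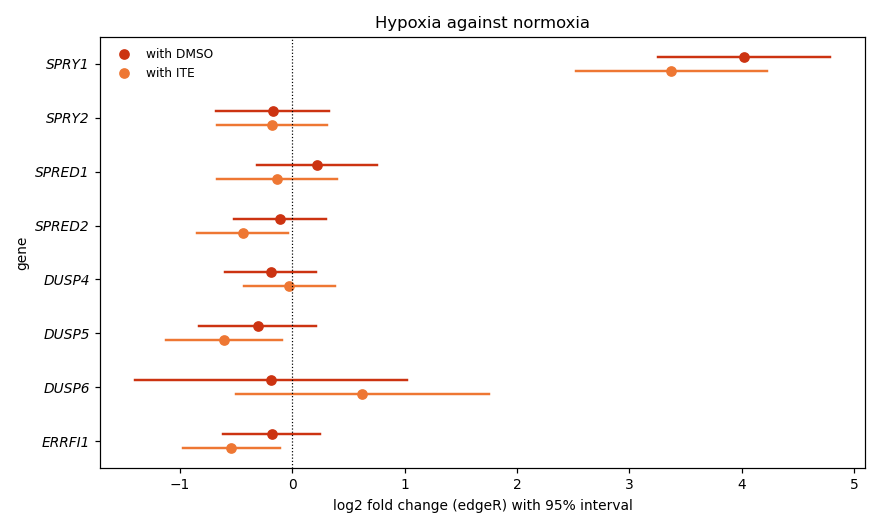
Log2 fold change (horizontal axis) of the 8 genes that passed the filter, hypoxia against normoxia, with DMSO (red) and with ITE (orange), as points with 95% intervals. SPRY1 lies at 4.02 and 3.37 and is drawn as a description, while every other interval with DMSO spans 0 and those of SPRED2, DUSP5 and ERRFI1 with ITE lie below 0 before adjustment over all genes.

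Hypoxia in the presence of ITE gave the same count. Of the 7 genes 0 rose and 0 fell by edgeR, against 1.89% of all genes called higher and 0.460% lower. DESeq2 called 0 of them, against 684 of all 11735 genes. At an unadjusted p-value under 0.05 there were 3, all with lower levels in hypoxia. Of all 11735 genes, 2361 passed that mark, 729 of them lower. ERRFI1 went from 36.5 to 60.6 CPM in normoxia + ITE to 10.6 to 52.9 CPM in hypoxia + ITE, with a log2 fold change of -0.54 (SE 0.21, adjusted p = 0.151). DUSP5 went from 13.4 to 30.4 CPM to 6.76 to 19.9 CPM and was lower in 6 of 6 same-numbered libraries (-0.60, SE 0.25, adjusted p = 0.177). SPRED2 went from 30.6 to 35.5 CPM to 9.17 to 32.5 CPM (-0.44, SE 0.20, adjusted p = 0.210).

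In each of these 3 genes the lowest library was hypoxia + ITE replicate 6, the library farthest from its group. Without that library the values were -0.37 for ERRFI1 (adjusted p = 0.266), -0.49 for DUSP5 (adjusted p = 0.368) and -0.28 for SPRED2 (adjusted p = 0.422). Without hypoxia + ITE replicate 5, which had the highest ERRFI1 level of its group, ERRFI1 passed the threshold at -0.72 (adjusted p = 0.0371). Limma's voom with sample quality weights instead called DUSP5, at -0.82 (adjusted p = 0.0393). No call on either gene is made here, since neither held over the settings tried.

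SPRY2 (-0.18), SPRED1 (-0.13) and DUSP4 (-0.026) differed little from 0 in that comparison, with adjusted p-values from 0.713 to 0.963 in edgeR. DUSP6 was at 0.62 (SE 0.55, adjusted p = 0.546). With ITE, SPRY4 averaged 0.669 ± 0.225 CPM under normoxia and 0.533 ± 0.842 CPM under hypoxia (exact permutation p = 0.825), and SPRED3 0.143 ± 0.150 and 0.239 ± 0.378 CPM (exact permutation p = 0.712).

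ITE itself changed none of the 7 other tested genes past the threshold in normoxia. The count was 0 of 7 by edgeR, where 0.0511% of all genes were called, with every adjusted p at 1. It was also 0 at an unadjusted p-value under 0.05, passed by 171 of all genes, and by DESeq2, which called 14. Log2 fold changes ran from -0.40 for DUSP6 to 0.18 for SPRY2. SPRY1, which is in the fit only through its hypoxia counts, had a value of -0.34 with an interval from -1.29 to 0.61, on 24 counts in normoxia + ITE and 73 in normoxia + DMSO. DUSP4 was the gene with the smallest unadjusted p-value, with 13.6 to 21.4 CPM in normoxia + DMSO and 9.17 to 17.5 CPM in normoxia + ITE (-0.32, SE 0.19, adjusted p = 1).

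In hypoxia SPRY1 was lower with ITE than with DMSO in all 6 same-numbered libraries. The highest hypoxia + ITE library (4.116 CPM) was just under the lowest hypoxia + DMSO library (4.123 CPM, from 3 counts), and the log2 fold change was -0.99 (SE 0.32, 95% interval -1.64 to -0.33). This difference is given as a description with no test, and none is called. The hypoxia + DMSO libraries took part in the choice of SPRY1 for its rise, so this value is not independent of that choice. The value was -0.79 without hypoxia + DMSO replicate 2 and hypoxia + ITE replicates 1 and 6, and -0.49 with sample quality weights. Leaving out single libraries gave -1.20 to -0.85.

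For the remaining 7 genes, ITE in hypoxia gave log2 fold changes from -0.43 for ERRFI1 (SE 0.21, adjusted p = 0.529) to 0.42 for DUSP6 (SE 0.60, adjusted p = 0.837). The edgeR count was 0, where 0.0597% of all genes were called. It was also 0 at an unadjusted p-value under 0.05, passed by 1122 of all genes, and by DESeq2, which called 9. Their median was -0.27 against 0.018 for all genes. DUSP5 was at -0.39 (adjusted p = 0.614), SPRED1 at -0.27 (adjusted p = 0.739), SPRED2 at -0.27 (adjusted p = 0.665), DUSP4 at -0.15 (adjusted p = 0.819) and SPRY2 at 0.17 (adjusted p = 0.836). SPRY4 and SPRED3 gave exact permutation p-values of 0.593 and 0.907.

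**Figure D3:**
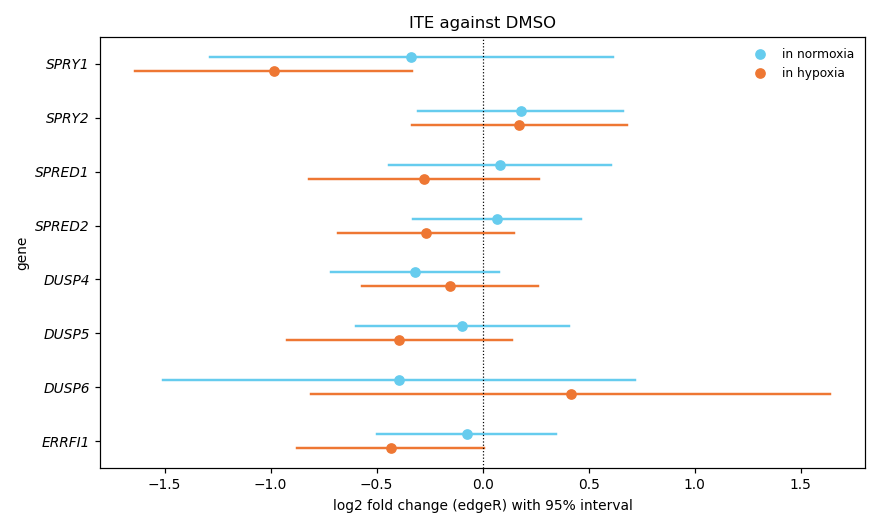
Log2 fold change (horizontal axis) of the 8 genes that passed the filter, ITE against DMSO, in normoxia (blue) and in hypoxia (orange), as points with 95% intervals. SPRY1 in hypoxia lies at -0.99 and is drawn as a description, since it was chosen on its hypoxia values, and the other intervals span 0 before adjustment.

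The effect of ITE was also compared between oxygen levels by an interaction term. It called 0 of the 7 genes other than SPRY1, as it called 0% of all genes. The count was 0 of the 7 also at an unadjusted p-value under 0.05, passed by 374 of all genes, and by DESeq2, which called 0 of all genes. Their values ran from -0.36 for ERRFI1 to 0.81 for DUSP6. For SPRY1 the interaction is the difference between the hypoxia changes that chose it, and is given without a test as -0.65 (SE 0.58).

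The rest of the pathway was read from 5 lists, beside the shares of all genes called in hypoxia (1.16% higher and 0.136% lower with DMSO, 1.89% and 0.460% with ITE). At those shares, a call or so in a list of this size is near the background, and the lists are described, not tested. Of 32 receptor tyrosine kinases 19 were tested, and 0 rose or fell in hypoxia with either vehicle or ligand, with median log2 fold changes of -0.061 with DMSO and 0.023 with ITE. Of 28 genes listed as ligands, a list without VEGFA, 14 were tested and 1, FGF11, rose in both comparisons. FGF11 belongs to the FGF family but is not secreted. Of 25 genes of the cascade from adaptors to ERK 23 were tested and 1, MAP2K1, which encodes the ERK kinase MEK1, rose in both. Of 29 further feedback genes 27 were tested and 1, DUSP1, an immediate-early phosphatase of p38, JNK and ERK, rose in both. Of 24 genes known as ERK outputs 19 were tested, and 0 passed with DMSO in the main test, while JUNB rose and SRF fell with ITE. The median of each of the 5 lists lay between -0.19 and 0.023 in these comparisons, against -0.0033 and 0.021 for all genes. ITE changed 0 genes of these lists in normoxia or in hypoxia, and the interaction called 0.

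**Figure D4:**
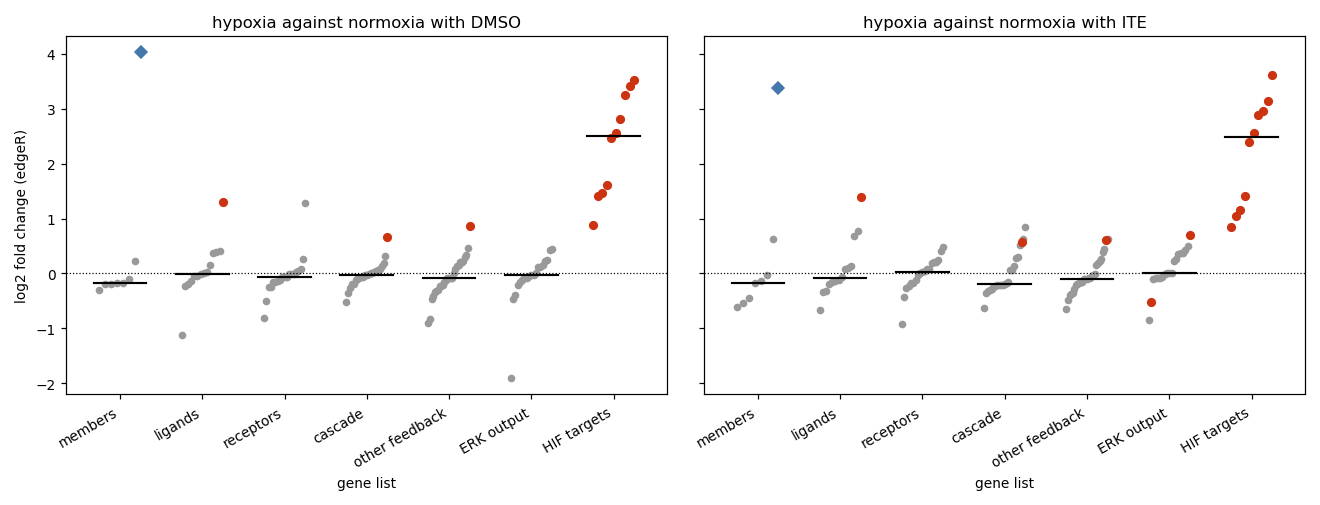
Log2 fold change (vertical axis) of each tested gene in the lists, for hypoxia with DMSO (left) and with ITE (right), with red points for genes past the edgeR threshold, grey points for the others, bars for list medians and a blue diamond for SPRY1, left out of its list's median. The medians of the pathway lists lie between -0.19 and 0.023, whereas 10 of 10 HIF targets are red, with medians of 2.51 and 2.48.

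DUSP1 was the feedback phosphatase that did rise in hypoxia. It ran from 114.0 to 163.7 CPM in normoxia + DMSO (median 132.1) and from 217.1 to 290.2 CPM in hypoxia + DMSO (median 253.8), without overlap, with a log2 fold change of 0.86 (SE 0.15, adjusted p = 0.00045) that kept its call under each alternative. With ITE it ran from 95.2 to 149.3 CPM and from 105.0 to 215.5 CPM (0.60, SE 0.15, adjusted p = 0.0216), with hypoxia + ITE replicate 6 lowest. That second call was lost without normoxia + ITE replicate 2 (adjusted p = 0.0567), 4 (0.0668) or 6 (0.0708), and with the compared groups alone (0.183). DUSP1 was also lower with ITE than with DMSO in hypoxia in 6 of 6 same-numbered libraries (-0.48, SE 0.15). Its adjusted p in edgeR was 0.494, so this difference did not pass the threshold.

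MAP2K1 ran from 35.5 to 42.6 CPM in normoxia + DMSO and from 49.5 to 73.6 CPM in hypoxia + DMSO, without overlap (0.67, SE 0.15, adjusted p = 0.0149), but its adjusted p was 0.0586 without hypoxia + DMSO replicate 5 and 0.0571 without replicate 6. With ITE 5 of 6 same-numbered libraries were higher (0.58, SE 0.15, adjusted p = 0.0388) and replicate 6 was lowest at 23.4 CPM. This call was lost in 11 of the 24 fits that left out a library, with adjusted p-values from 0.0504 to 0.0957: those without normoxia + DMSO replicates 2, 3 or 4, without any of the 6 normoxia + ITE libraries, or without hypoxia + ITE replicates 2 or 3. It was also lost with the replicate number as a block (0.0567), the compared groups alone (0.265, and 0.418 with the block), upper quartile factors (0.0613) and no filter (0.0531). FGF11, an intracellular member of the FGF family that is not secreted, went from 0.849 to 2.73 CPM in normoxia + DMSO to 2.44 to 6.31 CPM in hypoxia + DMSO (1.29, SE 0.29, adjusted p = 0.0145), with an adjusted p of 0.0621 without hypoxia + DMSO replicate 6. With ITE it went from 0.826 to 3.01 CPM to 4.40 to 6.15 CPM, without overlap (1.39, SE 0.29, adjusted p = 0.00654, and 0.106 with the compared groups alone and the block).

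JUNB and SRF, transcription factors of the immediate-early response, moved in opposite directions. With ITE, JUNB ran from 19.5 to 31.6 CPM in normoxia and from 25.1 to 51.5 CPM in hypoxia (0.70, SE 0.17, adjusted p = 0.0239), and its adjusted p lay between 0.0633 and 0.0695 without normoxia + ITE replicate 1, 3, 4 or 6 or hypoxia + ITE replicate 2, and was 0.145 with the compared groups alone. With DMSO it had a value of 0.44 (SE 0.17, adjusted p = 0.342). SRF ran from 70.6 to 86.6 CPM in normoxia + ITE and from 45.3 to 66.8 CPM in hypoxia + ITE, without overlap (-0.52, SE 0.12, adjusted p = 0.0143), a call lost with the compared groups alone (0.0728, and 0.192 with the block). With DMSO it had a value of -0.46 at the edge of the threshold (SE 0.12, adjusted p = 0.0508). It passed there with DESeq2 (0.00602), voom quality weights (0.000103), RLE factors (0.0456), upper quartile factors (0.043), the compared groups alone (0.0396, and 0.0369 with the block) and without hypoxia + DMSO replicate 2 and hypoxia + ITE replicates 1 and 6 (0.0163), whereas leaving out single libraries gave 0.0066 to 0.166. The interaction was not past the threshold for either gene, with adjusted p = 0.915 for JUNB and 0.973 for SRF, so a difference between the DMSO and ITE arms was not shown.

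**Figure D5:**
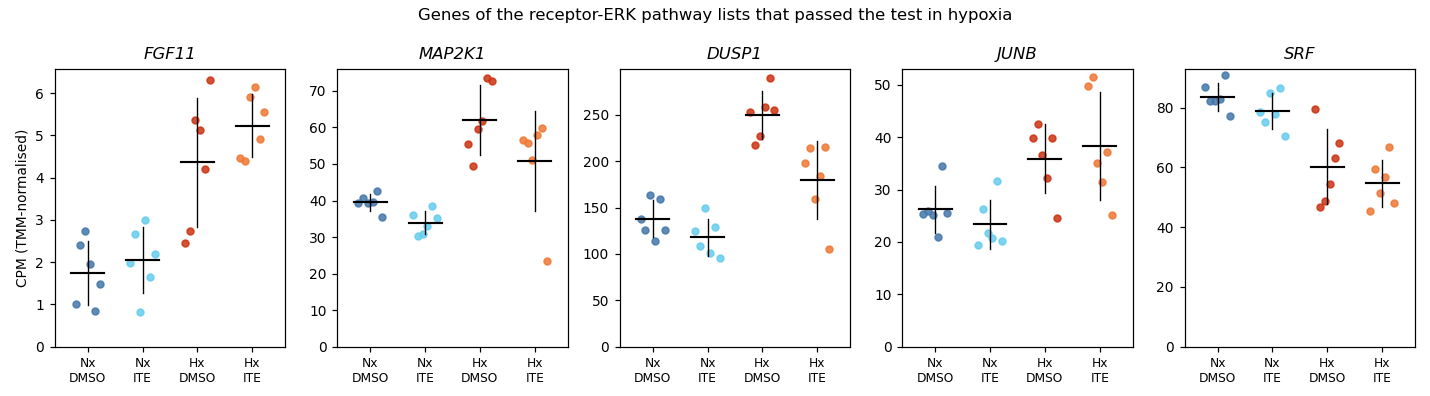
Level in CPM (linear axes from 0, a separate scale per gene) of the 5 genes of the pathway lists that passed the test in a hypoxia comparison, with points for libraries, horizontal bars for means and vertical lines for 1 SD, 6 libraries per group. DUSP1 and MAP2K1 show no overlap between normoxia + DMSO and hypoxia + DMSO, at 114.0 to 163.7 against 217.1 to 290.2 CPM for DUSP1.

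Across the 24 libraries the genes whose log2 CPM was most like that of SPRY1, among 10065 other genes with a mean of at least 5 CPM, were FAM210A (Spearman's rho 0.90), UPRT (0.88), C8orf58 (0.87), DDIT4 (0.86) and F3 (0.86). All 5 had positive log2 fold changes in hypoxia with DMSO, from 0.73 for FAM210A to 3.53 for DDIT4, an inhibitor of mTORC1 that was also on the list of HIF targets, and F3 encodes tissue factor, the starter of coagulation. The points share 4 groups, so such correlations mostly describe the difference between oxygen levels. Once the mean of each group was subtracted, the leading genes were GCFC2 (0.74), EOGT (0.74), SPPL3 (0.73), ISCA1 (0.72) and ANKRD44 (0.72), and none of the first 5 was among them. Of the 7 other feedback genes, rho with SPRY1 over all libraries ran from -0.25 for ERRFI1 to 0.35 for SPRED1. With group means subtracted it ran from -0.021 for DUSP6 to 0.57 for SPRY2. These within-group values come from the same libraries that differ most in depth and in distance from their group, and their part in the values was not tested.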

How the data were processed

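Polyadenylated RNA was sequenced from 24 RCC4+VHL libraries made with a directional kit. Per the labels and the study's methods, the authors trimmed reads with Trim Galore 0.3.3, aligned them to GRCh37 with HISAT2, dropped fragments without a unique position (Picard 2.0.1) and counted reads per UCSC gene with HTSeq 0.5.4p3, keeping only reads wholly within a gene's exons. The deposited values are raw counts per gene symbol, without normalisation, 1 file per library. Groups and replicate numbers came from the sample titles.

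The counts were analysed in R 4.3.3 with edgeR 4.0.16. Of 23106 genes, 11735 passed filterByExpr (minimum count 10). Libraries were normalised by TMM, and the quasi-likelihood test was run on all 24 libraries with a mean for each of the 4 groups. Adjusted p-values (two-sided, Benjamini-Hochberg, over all tested genes) under 0.05 were called. Log2 CPM used a prior count of 2. SPRY4 and SPRED3, below the filter, were compared by two-sided exact permutation tests of CPM (6 against 6 libraries). Total counts of 770094 to 93851342 set the precision, since 3 counts in the shallowest library equal 4.12 CPM.

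DESeq2 1.42.0, limma 3.58.1 (voom with sample quality weights), other normalisations and filters, the replicate number as a block, the compared groups alone and leaving out each library were tried as alternatives, and 2 more were chosen after seeing the data: leaving out 3 doubted libraries together, and the block within the compared groups. Promoter windows came from RefSeq (GRCh38.p14), which held 8 of the 10 genes. The 10 genes and the lists were chosen with earlier results of these data known, so no list was tested as a set. All 10 were named in each comparison, with the genes of 5 pathway lists that passed the threshold (up to 3 per direction) and the 5 genes most like SPRY1 by each of 2 correlations. No library was a repeat of another in its own group, since the smallest chi-square per degree of freedom between 2 libraries of a group was 3.63 over 60 pairs. Libraries of different groups were not compared in this way. Replicates are described as independent, and p-values measure the spread between them.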

Additional observations from a re-analysis of the deposited data

Results flagged for a closer look

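In 11 of 64 groups of 6 libraries examined (totals, the 10 genes and the 5 pathway genes shown), 1 library lay farther from the others than Dixon's 95% limit allows. For normally distributed values that limit is passed in about 1 group in 20, or 3.2 groups. Total counts and levels that rest on a few counts need not be so distributed, so 3.2 is no expectation for these groups. Total counts did so in normoxia + ITE replicate 5 (48357647), hypoxia + DMSO replicate 5 (37995687) and hypoxia + ITE replicate 4 (87404330), each the deepest library of its group.

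Among the feedback genes, SPRY2 was lowest in normoxia + ITE replicate 1 (12.69 CPM, the next library 15.72 CPM). SPRED1 was lowest in hypoxia + ITE replicate 6 (1.931 CPM on 8 counts, the next 11.88 CPM). SPRY4 was highest in hypoxia + ITE replicate 1 (2.228 CPM), SPRED3 in normoxia + DMSO replicate 1 (0.8882 CPM) and in hypoxia + ITE replicate 6 (0.9656 CPM), and DUSP6 in hypoxia + DMSO replicate 2 (6.871 CPM on 5 counts).

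Of the other pathway genes, MAP2K1 was lowest in hypoxia + ITE replicate 6 (23.42 CPM, the next 51.0 CPM) and JUNB highest in normoxia + DMSO replicate 5 (34.51 CPM, the next 25.91 CPM). Hypoxia + ITE replicate 6 thus stood out for 3 genes. Its part in the results was measured by leaving it out: the count of feedback genes past the threshold in hypoxia with ITE was then 0, and MAP2K1 remained past the threshold.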

How the results depend on the processing

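The alternatives were 8 set in advance, 24 fits that each left out a library and 2 added after seeing the data. Of 1327 recomputed values of the 8 feedback genes that passed the filter, 1295 kept their sign and side of the threshold. Another 30 took the other sign and 2 passed the threshold only in an alternative. SPRY1 in hypoxia has no test, so its values counted as kept if the sign held and they moved by under 0.688, its SD of log2 CPM in hypoxia. None of the 8 genes had a call to lose in a comparison that was tested. SPRY1 in hypoxia ran from 3.79 to 4.20 with DMSO and from 3.16 to 3.77 with ITE. The number of feedback genes past the threshold was 0 throughout with DMSO, in both ITE comparisons and in the interaction. For hypoxia with ITE it was 1 (DUSP5) with voom quality weights, 0 to 1 over the fits leaving out a library (1 without hypoxia + ITE replicate 5) and 0 without the 3 doubted libraries. Signs that turned belong to values near 0 that passed no threshold, and the cause was not tested. In hypoxia with DMSO, DUSP6 was 0.087 in DESeq2 and -0.54 to 0.026 over single libraries left out, and SPRED2 -0.20 to 0.019. In hypoxia with ITE, without the 3 libraries SPRY2 was 0.095, SPRED1 0.089 and DUSP4 0.042; SPRED1 was 0.11 with voom and -0.23 to 0.064 over single libraries, and DUSP4 -0.13 to 0.062. For ITE in normoxia, SPRED1 was -0.0080 with voom, and single libraries gave -0.23 to 0.0099 for DUSP5 and -0.14 to 0.024 for ERRFI1. The interaction of SPRY2 was 0.013 with upper quartile factors, 0.0029 without a filter, 0.19 with voom, 0.22 without the 3 libraries and -0.13 to 0.17 over single libraries. The labels do not say what a replicate number shares. Same-numbered correlations of deviations exceeded 0.1 in 13 of 24 pairs, not in all (range -0.181 to 0.435), so the libraries were not treated as paired, although 10 of 12 normoxia libraries correlated best with their own number across treatments, against 3 of 12 hypoxia libraries. The block raised the genes called for ITE in normoxia from 6 to 13 higher, and with the compared groups alone from 27 higher and 3 lower to 160 and 95. With the replicate block 0 feedback genes were called in every comparison, and among the 5 other genes MAP2K1 in hypoxia with ITE was lost (adjusted p = 0.0567). With the compared groups alone, calls in hypoxia with ITE were lost for MAP2K1 (adjusted p = 0.265), DUSP1 (0.183), JUNB (0.145) and SRF (0.0728), and with the block added also for FGF11 (0.106). MAP2K1 there also had 0.0613 with upper quartile factors and 0.0531 without a filter. Over all genes, edgeR called 136 higher and 16 lower in hypoxia with DMSO and 222 and 54 with ITE, and DESeq2 203 and 46, and 507 and 177. SPRY1 was filtered out, and gave no value, with the compared groups alone, with or without the block, for hypoxia with ITE and for ITE in normoxia. DUSP6 gave no value in 3 alternatives for each comparison of 2 groups and in 1 for the interaction. Genes near 1 CPM, such as SPRY4, SPRED3 and DUSP6, are limited by the depth of the shallow hypoxia libraries.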
